A study of Homo sapiens with 8 samples.

Results

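The knockout screen held 150 guides against 25 enzymes of purine and pyrimidine nucleotide synthesis, 6 guides per gene, among 111627 guides against genes and 119461 guides in all. They were selected by target name, as every guide of the count table aimed at one of these enzymes. No measured value was a criterion, but earlier results of these data were known when the enzymes were chosen. The cells were MB157R, a triple-negative breast cancer line derived from MB157 by long selection under a gamma-secretase inhibitor (GSI, a drug that blocks the cleavage step activating NOTCH receptors), carrying stable Cas9 and the GeCKOv2 guide library. Guides were counted in genomic DNA from 2 libraries of the transduced pool before treatment (T0), from 3 cultures kept in DMSO, the vehicle, and from 3 cultures kept in 10 µM GSI, all harvested on day 14. Every group, the DMSO control included, descended from the same resistant line and the same transduced pool, so p-values cover the spread between these libraries and not between independent transductions. Guide counts carry no expression values, and the identity of the line was therefore not checked against markers.

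Cells obtain nucleotides along separate routes. De novo synthesis builds the purine ring step by step on phosphoribosyl pyrophosphate (PRPP) up to inosine monophosphate (IMP), from which branches lead to AMP and GMP, and builds pyrimidines as orotate before joining it to PRPP to give UMP. Salvage enzymes instead join ready-made bases to PRPP or phosphorylate ready-made nucleosides, taken up from the medium or released by RNA and DNA breakdown. Folate enzymes supply the one-carbon units for the purine ring and for thymidylate, and nucleoside monophosphate kinases stand downstream of de novo and salvage routes alike. In a growing pool, a guide whose target the cells need becomes rarer than at T0. Per the study's methods, T0 was taken after puromycin selection of the transduced cells, so any loss before T0 is not seen here. The members were grouped by these roles: 14 de novo enzymes (4 for pyrimidines, 6 for purines up to IMP, 4 in the AMP and GMP branches), 4 salvage enzymes, 3 shared kinases and 4 folate enzymes.

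Library totals ran from 12052218 to 18212884 counts. In GSI replicate 1, 1 guide against VPS33B held 38.8% of all counts, which left that library with a median of 66 counts per guide against 80 to 112 in the others. Counts are given here after division by median-ratio size factors (normalized counts). A guide was tested where its raw counts averaged 10 or more across the 8 libraries, and 145 of the 150 member guides met that limit. The 5 below that limit, 1 each for ADSS, ATIC, PAICS, SHMT1 and UCK2, were already near 0 at T0, with 0 to 9 raw counts per T0 library.

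The T0 libraries disagreed with each other more than the treated cultures did, and every comparison with T0 below rests on those 2 libraries. Of the 145 member guides, 49 (33.8%) differed more than 4-fold between the T0 libraries, close to the 33.5% of all guides against genes. Between DMSO cultures 13.1% to 18.6% of member guides differed that much, and between GSI cultures 5.52% to 10.3%. Member guides without a single count numbered 12 and 10 of 150 in the T0 libraries, 4, 5 and 5 in DMSO, and 1, 3 and 2 in GSI.

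None of the 25 enzymes was called in any comparison at an adjusted p under 0.05, on the side of loss or of gain. The gene test combined the ranks of a gene's edgeR guide p-values (robust rank aggregation, RRA) against an exact null and was adjusted over 18570 genes. Over all genes, 6 (0.0323%) were called lower in DMSO than at T0, and 0 (0%) were called on any other side of any comparison. RRA of DESeq2 guide p-values also called 0 members. The lowest adjusted p of a member was 0.807 for DMSO against T0, 0.638 for GSI against T0 and 0.959 for GSI against DMSO. The values below therefore describe sizes and directions, and none is a called change.

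On the low side, 2 members reached an unadjusted exact p under 0.05 in DMSO against T0, as 6.12% of all genes did. They were GUK1, and MTHFD2 with a positive median fold change of 0.046. For GSI against T0 the number was 4 (PPAT, PFAS, GUK1 and ATIC), beside 5.7% of all genes, and for GSI against DMSO it was 1 (PPAT), beside 5.06%. On the high side 0 of 25 members reached that level in each comparison, while 5.3%, 5.39% and 4.99% of all genes did. Both comparisons with T0 share the T0 libraries, so low values of a member in both are not independent observations.

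The lowest role group in both arms was that of the shared nucleotide kinases. CMPK1 (which phosphorylates CMP and UMP), DTYMK (which turns dTMP into dTDP on the way to dTTP) and GUK1 (which phosphorylates GMP) had log2 fold changes of -0.82, -0.79 and -1.37 in DMSO against T0, and of -0.73, -0.86 and -1.44 in GSI against T0. A gene's fold change here is the median over its tested guides. Of the 18 kinase guides, 16 were negative in DMSO and 15 in GSI, where 50.1% and 51.0% of all guides against genes were. In DMSO 10 of the 18 (55.6%) lay under -1, against 17.8% of all guides, and in GSI 7 (38.9%) did, against 16.1%. The A and B parts of the guide library, counted in the same libraries, had 8 of 9 kinase guides negative in each part in DMSO. In GSI 8 of 9 and 7 of 9 were negative. Not every role group matched between parts in DMSO against T0. Medians over guides were -0.81 (A) and 0.082 (B) for purine synthesis up to IMP, and -0.17 and 0.56 for salvage. The folate group and the AMP and GMP branches were positive in both parts.

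Much of the kinase group's distance from T0 came from T0 replicate 1. Without it the group median went from -0.82 to -0.18 in DMSO and from -0.86 to 0.035 in GSI, where the median of all genes moved to 0.23 and 0.20, and 10 of 18 guides were negative in each arm. Without T0 replicate 2 the medians were -1.03 and -0.98. On the scale of log2 normalized counts relative to each guide's T0 mean, the median kinase guide stood at 0.44 in T0 replicate 1 and -0.44 in T0 replicate 2, and at -0.68, -0.57 and -0.79 in the DMSO cultures and -0.36, -0.86 and -0.51 in the GSI cultures. The median of all guides against genes lay between 0.21 and 0.25 in each of those 6 cultures. Except for GSI replicate 1, the kinase guides were thus below the lower T0 library in every culture.

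GUK1 (chr1:228139962-228148984, plus strand, GRCh38) showed this dependence most plainly. Its guides averaged 212 and 71.7 normalized counts in the T0 libraries, 74.0, 60.5 and 82.2 in DMSO and 86.6, 122 and 82.0 in GSI. The day 14 cultures lay under T0 replicate 1 and around T0 replicate 2. RRA gave an unadjusted exact p of 0.0477 and an adjusted p of 0.809 for DMSO against T0, and 0.0313 and 0.810 for GSI against T0. Without T0 replicate 1 the fold changes turned to 0.36 and 0.48, where the median of all genes also rose, as given above.

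The 6 GUK1 guides were not uniform. HGLibB_20645 had 461 and 84.5 normalized counts at T0, 91.0, 43.3 and 90.0 in DMSO and 101, 44.5 and 55.4 in GSI. HGLibB_20646 had 314 and 158 at T0, 36.2, 95.7 and 91.1 in DMSO and 55.2, 96.2 and 94.0 in GSI, so that all 6 cultures lay under both T0 libraries. HGLibA_20673 went the other way in GSI, with 198 and 94.9 at T0, 250, 84.9 and 230 in DMSO and 217, 497 and 297 in GSI. HGLibA_20672 and HGLibA_20674 had negative fold changes in both arms, and HGLibB_20644 stayed close to 0 at -0.17 and 0.24.

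DTYMK (chr2:241675747-241686944, minus strand) was the only kinase whose 6 guides were negative in both arms. Its guides averaged 114 and 103 normalized counts at T0, 73.4, 55.4 and 53.5 in DMSO and 70.9, 60.1 and 40.7 in GSI. By these means no culture reached either T0 library. Guide by guide, 2 of 6 were lower in every DMSO culture than in both T0 libraries, beside 13.2% of all guides. In GSI 1 of 6 was, beside 13.8%, and 2 of 6 differed more than 4-fold between the T0 libraries. The DTYMK fold change stayed low whichever T0 library was left out, at -0.70 and -1.03 in DMSO and -1.20 and -0.98 in GSI. RRA did not call it, with adjusted p of 1.0 in DMSO and 0.930 in GSI. CMPK1 averaged 225 and 123 normalized counts at T0, 92.6, 125 and 107 in DMSO and 130, 114 and 135 in GSI, under T0 replicate 1 but overlapping T0 replicate 2.

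Purine synthesis up to IMP was the next lowest group. All 6 genes had negative fold changes in GSI against T0, with a median of -0.71, and 4 of 6 in DMSO against T0, with a median of -0.56. Of its 34 tested guides 26 were negative in GSI and 20 in DMSO. This group too leaned on T0 replicate 1: without it the medians were 0.15 in DMSO and 0.040 in GSI, with 3 of 6 genes negative in each arm. Both lay under the medians of all genes in those fits, given above for the kinases. Without T0 replicate 2 they were -0.29 and -0.61. Including the 2 filtered guides moved the DMSO median to -0.27.

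PPAT, which commits PRPP to the purine route, had the lowest fold change of the group between GSI and DMSO. Its guides averaged 225 and 204 normalized counts at T0, 176, 122 and 146 in DMSO and 127, 97.6 and 71.5 in GSI. The cultures of both arms were below both T0 libraries, and only GSI replicate 1 overlapped the DMSO range. All 6 guides had negative fold changes in GSI against T0 (gene value -0.74, SD over guides 0.50) and all 6 in GSI against DMSO (-0.76, SD over guides 0.50), and in DMSO against T0 2 of 6 were negative and the gene value was 0.23. The lower mean count in DMSO came from those 2 guides, the most abundant of the gene, HGLibA_37853 at -0.82 and HGLibB_37803 at -1.32, while the other 4 lay between 0.17 and 0.74.

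In GSI against DMSO PPAT ranked 124 of 18570 genes on the low side, with an unadjusted exact p of 0.00672 and an RRA adjusted p of 0.959. Leaving out DMSO replicate 1 or GSI replicate 3 took the unadjusted exact p to 0.0900 in each case, and the fold change to -0.57 and -0.59. Over the 14 other settings tried it was under 0.05 in 12. Against T0 the unadjusted exact RRA p in GSI was 0.0107 and the adjusted p 0.638. Leaving out T0 replicate 1 turned the fold change to 0.12, under the median of all genes given above for that fit. PPAT (chr4:56393362-56435615, minus strand) lies head to head with PAICS (chr4:56435741-56464578, plus strand), whose product acts later in the same route. PAICS did not share PPAT's pattern, with a fold change of 0.20 in GSI against DMSO and 1 of 5 guides negative.

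PFAS, which transfers a nitrogen from glutamine midway along the route, had fold changes of -0.71 in DMSO and -0.71 in GSI against T0. Its guides averaged 162 and 197 normalized counts at T0, 176, 93.7 and 143 in DMSO and 180, 116 and 105 in GSI, so 1 culture of each arm lay within the T0 range. For GSI against T0 the unadjusted exact p was 0.0149 and the RRA adjusted p 0.686, and 7 of 13 other settings kept the unadjusted value under 0.05. Its guides split: HGLibB_36088 was positive in both arms at 0.45 and 0.49, HGLibA_36134 was 0.52 in DMSO and -0.90 in GSI, and the other 4 were negative in both, between -0.62 and -1.31.

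The remaining enzymes of the route followed in order. GART, a protein with several activities early in the ring's assembly, had -0.62 and -0.70 in DMSO and GSI against T0. PAICS had -0.49 and -0.30, with SDs over guides of 1.51 and 1.69. ADSL, which acts in this route and again on the way to AMP, had -0.92 and -0.93 with 5 of 6 guides negative in each arm. ADSL guides averaged 191 and 127 normalized counts at T0, 84.0, 83.7 and 84.7 in DMSO and 103, 91.0 and 110 in GSI, all 6 cultures under both T0 libraries, and RRA gave an adjusted p of 1.0 in each arm.

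ATIC, which closes the ring to IMP, had fold changes of 0.027 and -0.32. It averaged 186 and 165 normalized counts at T0, 158, 111 and 145 in DMSO and 127, 89.5 and 151 in GSI. Each culture was below both T0 libraries, yet 2 of its 5 tested guides were positive in GSI. Its unadjusted exact p for GSI against T0 was 0.0401, its RRA adjusted p 0.855, and 5 of 13 other settings kept the unadjusted value under 0.05.

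The AMP and GMP branches held no common direction. ADSS (now named ADSS2), which opens the branch to AMP, had 0.54 and 0.065 in DMSO and GSI against T0, and GMPS, which completes GMP, had 0.40 and 0.69. The paired enzymes IMPDH1 and IMPDH2 catalyse the same rate-limiting step towards GMP. IMPDH1 had 0.42 and -0.30, and IMPDH2 had -0.70 and -0.25.

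IMPDH1 (chr7:128392277-128409986, minus strand) had the most uniform guides of all members in GSI against DMSO. Its guides averaged 68.2 and 99.2 normalized counts at T0, 70.7, 108 and 98.2 in DMSO and 59.7, 49.1 and 57.8 in GSI. By these means every GSI culture was under every DMSO culture and under both T0 libraries. Guide by guide, 1 of 6 was lower in every GSI culture than in every DMSO culture, beside 4.37% of all guides. For GSI against T0, 0 of 6 were wholly lower, beside 13.8%. The T0 libraries differed more than 4-fold for 4 of 6 guides, so the place of IMPDH1 relative to T0 could not be read. All 6 guides were negative in GSI against DMSO, between -0.49 and -0.93, with a gene value of -0.77 and an SD over guides of 0.18, and 0.350% of all genes had a lower fold change. The unadjusted exact RRA p was 0.0605, with an adjusted p of 0.972. Over the leave-one-library-out fits the fold change ran from -0.57 to -0.86.

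IMPDH2 averaged 20.2 and 125 normalized counts at T0, 96.2, 68.3 and 52.0 in DMSO and 85.1, 70.2 and 62.0 in GSI. The T0 libraries enclosed all 6 cultures, and 4 of 6 guides differed more than 4-fold between them, so its loss or gain since T0 could not be read. Between arms IMPDH2 had 0.17 where IMPDH1 had -0.77. The difference between the paired enzymes was not tested.

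Against T0, pyrimidine synthesis stayed near the middle of all genes. CAD, the fused enzyme of the opening steps, had 0.070 and -0.15 in DMSO and GSI against T0. DHODH, the mitochondrial enzyme that makes orotate, had 0.40 and 0.055. UMPS, which turns orotate into UMP, had 0.21 and 0.050, and CTPS1, which makes CTP from UTP, had -0.35 and -0.33. The group medians were 0.14 and -0.052, beside 0.0047 and -0.018 for all genes.

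CTPS1 (chr1:40979300-41012565, plus strand) averaged 124 and 136 normalized counts at T0, 134, 99.3 and 106 in DMSO and 101, 115 and 80.8 in GSI, which hid guides moving in opposite directions. HGLibA_11668 had 0 and 2.85 normalized counts at T0 and 106, 96.6 and 45.6 in DMSO. HGLibB_11656 had 2.51 and 48.4 at T0 and 226, 97.5 and 101 in DMSO. HGLibA_11667, HGLibB_11655 and HGLibB_11657 instead had fold changes of -1.71, -1.20 and -1.38, and HGLibA_11669 had 0.49. In the GSI cultures HGLibA_11668 had 56.6, 69.9 and 38.6 normalized counts and HGLibB_11656 had 87.5, 72.3 and 49.1, while HGLibA_11669 lay at a fold change of -0.017 and the other 3 guides between -0.64 and -1.68.

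The 4 folate enzymes lay slightly above all genes, with medians of 0.22 in DMSO and 0.35 in GSI against T0, and 0 of 4 and 1 of 4 genes negative. As medians over guides they had 0.27 and 0.21, near the 0.25 and 0.18 of the 999 non-targeting control guides. SHMT1 and SHMT2, the cytosolic and mitochondrial enzymes that take a carbon from serine, had 0.25 and 0.52 in DMSO and 0.54 and 0.54 in GSI. SHMT1 averaged 139 and 79.3 normalized counts at T0, 128, 186 and 112 in DMSO and 145, 149 and 148 in GSI. SHMT2 averaged 68.9 and 105 at T0, 133, 93.0 and 90.4 in DMSO and 93.6, 101 and 143 in GSI. The 3 GSI cultures lay above both T0 libraries for SHMT1, and all other groups of these genes overlapped.

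MTHFD1, the cytosolic enzyme that interconverts folate one-carbon forms, had fold changes of 0.19 and 0.16, and its mitochondrial counterpart MTHFD2 had 0.046 and -0.20. MTHFD1 averaged 145 and 141 normalized counts at T0, 143, 91.9 and 111 in DMSO and 106, 123 and 131 in GSI. MTHFD2 (chr2:74186172-74217565, plus strand) averaged 140 and 126 at T0, 142, 74.2 and 114 in DMSO and 106, 117 and 66.8 in GSI. Apart from DMSO replicate 1, each culture lay under both T0 libraries for these genes.

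MTHFD2 had the lowest unadjusted exact p of all members in DMSO against T0, 0.0472, with an RRA adjusted p of 0.807, although its median fold change was positive. HGLibA_30381 accounted for this, with 460 and 173 normalized counts at T0, 32.9, 28.0 and 66.1 in DMSO and 95.6, 103 and 47.0 in GSI. Its fold changes were -2.90 and -1.95. The other 5 guides lay between -0.22 and 1.13 in DMSO and between -0.50 and 0.79 in GSI.

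The 4 salvage enzymes scattered around all genes. HPRT1, which recovers hypoxanthine and guanine, had fold changes of 0.47 and 0.11 in DMSO and GSI against T0, and APRT, which recovers adenine, had -0.072 and 0.34. TK1, the cytosolic thymidine kinase, had -0.15 and -0.22, and UCK2, which phosphorylates uridine and cytidine, had 0.11 and 0.20. Their lowest RRA p on the side of loss was far from the threshold, with adjusted p of 0.988 or above in all 3 comparisons.

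HPRT1 averaged 114 and 50.3 normalized counts at T0, 103, 101 and 108 in DMSO and 87.3, 89.3 and 72.2 in GSI, so that the T0 libraries enclosed every culture while the GSI cultures were all under the DMSO cultures. APRT averaged 79.5 and 66.0 at T0, 62.3, 81.2 and 88.7 in DMSO and 74.1, 85.8 and 98.3 in GSI. The groups overlapped. TK1 averaged 121 and 105 at T0, 101, 85.3 and 116 in DMSO and 83.1, 124 and 99.6 in GSI, and UCK2 averaged 110 and 184 at T0, 149, 151 and 145 in DMSO and 124, 179 and 129 in GSI. These too overlapped in every comparison.

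Single salvage guides varied widely. For APRT, HGLibB_02570 had 0 and 0.949 normalized counts at T0 and 18.6, 46.0 and 112 in DMSO, HGLibB_02571 was positive in both arms at 1.66 and 1.64, HGLibB_02569 was -1.60 in DMSO and -0.097 in GSI, and the other 3 lay between -0.53 and 0.57. For HPRT1, HGLibA_22044 was negative at -2.13 and -1.10 and HGLibB_22014 positive at 1.45 and 0.80. The most abundant HPRT1 guide, HGLibA_22043, stayed at 0.073 and -0.14. For TK1, HGLibA_49581 was positive at 1.93 and 2.05 and HGLibB_49520 negative at -1.08 and -1.34, while the abundant HGLibB_49521 lay at 0.012 and 0.38. For UCK2, HGLibB_52749, with 246 to 541 normalized counts across the cultures and 270 and 476 at T0, stayed at 0.11 and -0.024.

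Directly between the arms, 14 of the 25 members had a lower fold change than 0 in GSI against DMSO, and role group medians lay between -0.25 and 0.12, beside -0.018 for all genes. Pyrimidine synthesis had the lowest of them, -0.25 with 3 of 4 genes negative: CTPS1 had -0.49, DHODH -0.36, UMPS -0.14 and CAD 0.022, and 4.04% and 10.2% of all genes lay below CTPS1 and DHODH. RRA gave CTPS1 an adjusted p of 0.985 and DHODH 0.988. Purine synthesis up to IMP followed at -0.11, where beside PPAT and PAICS the values were -0.27 for ATIC, -0.17 for GART, -0.041 for PFAS and 0.13 for ADSL. In the AMP and GMP branches ADSS had -0.34 with 5 of 5 guides negative, and GMPS had 0.36.

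The kinases lay slightly higher in GSI than in DMSO except for DTYMK, with 0.22 for CMPK1, 0.12 for GUK1 and -0.28 for DTYMK. Among folate enzymes the values were 0.18 for SHMT1, 0.020 for SHMT2, 0.077 for MTHFD1 and -0.27 for MTHFD2. The salvage enzymes had -0.36 for HPRT1, 0.17 for APRT, -0.067 for TK1 and -0.14 for UCK2. None of these was called.

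Set side by side, de novo and salvage enzymes did not separate alike in all cultures. The 14 de novo genes had median fold changes of 0.048 in DMSO, -0.30 in GSI against T0 and -0.16 in GSI against DMSO, with 6, 10 and 9 genes negative. The 4 salvage genes had 0.021, 0.16 and -0.10, with 2, 1 and 3 negative. As the median over guides of log2 normalized counts relative to T0, de novo minus salvage was 0.081, -0.24 and -0.65 in the DMSO cultures (mean -0.27 ± 0.37, SD, n = 3) and -0.0051, -0.68 and -0.40 in the GSI cultures (mean -0.36 ± 0.34, SD, n = 3), and 0.066 and -0.066 in the T0 libraries. The lowest GSI value and the lowest DMSO value were close, 1 culture of each arm lay near the T0 libraries, and the arms differed by -0.089, less than either SD. Moving the 3 kinases into the de novo group took its DMSO median to -0.35.

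The de novo medians were not stable to the T0 library used. Without T0 replicate 1 they were 0.27 in DMSO and -0.022 in GSI, and without T0 replicate 2 they were 0.24 and 0.19. In the fits without T0 replicate 1 the median of all genes rose as well, as given for the kinases. The de novo median lay above it in DMSO and under it in GSI. Without DMSO replicate 1 the DMSO value was -0.22. The salvage medians ranged from -0.13 to 0.45 in DMSO and from -0.015 to 0.38 in GSI when single libraries were left out.

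Guide by guide, 24 of 145 member guides (16.6%) were lower in every DMSO culture than in both T0 libraries, beside 13.2% of all guides against genes, and 17 (11.7%) were higher in every one, beside 14.9%. For GSI against T0 25 (17.2%) were wholly lower, beside 13.8%, and 20 (13.8%) wholly higher, beside 15.7%. The kinases gave 5 of 18 wholly lower in each arm, and purine synthesis up to IMP gave 6 of 34 (17.6%) in DMSO and 9 of 34 in GSI. The salvage enzymes gave 2 of 23 wholly lower in each arm, and 5 and 4 wholly higher. Between arms, 9 member guides (6.21%) were lower in every GSI culture than in every DMSO culture, beside 4.37%, and 7 (4.83%) were higher, beside 4.69%. Salvage enzymes gave 4 of 23 wholly lower in GSI than in DMSO (17.4%) and 1 wholly higher (4.35%). De novo enzymes gave 4 of 81 on each side (4.94%). Over all members these shares lay within 4 percentage points of those for all guides. The larger shares wholly below T0 were those of the kinases (27.8% in each arm), pyrimidine synthesis in DMSO (20.8%) and purine synthesis up to IMP in GSI (26.5%). The AMP and GMP branches had smaller ones, 8.70% in DMSO and 4.35% in GSI. Between arms the salvage share wholly lower (17.4%) was the largest of the role groups. These role groups hold 18 to 34 tested guides each, counted in the same libraries.

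At the level of single guides edgeR called 0 of 145 member guides in each comparison (0% of all guides in each), while an unadjusted p under 0.05 was reached by 11 in DMSO against T0 (7 lower, 4 higher), beside 7.75% of all guides, by 15 in GSI against T0 (10 lower, 5 higher), beside 8.71%, and by 2 in GSI against DMSO (1 lower, 1 higher), beside 3.01%. DESeq2 called 7 member guides in DMSO against T0 (3 lower and 4 higher), beside 5.7% of all guides, 8 in GSI against T0 (4 lower and 4 higher), beside 6.77%, and 0 in GSI against DMSO, beside 0%. The guides it called in both arms were 1 each for MTHFD2 and UMPS on the low side and for PAICS and CTPS1 on the high side. HGLibB_52919 against UMPS had 80.3 and 174 normalized counts at T0, 0, 0 and 6.84 in DMSO and 10.8, 7.95 and 18.8 in GSI, while 4 of the other 5 UMPS guides had positive fold changes in each arm. Called in DMSO alone were 1 MTHFD1 guide lower, HGLibB_30333 at -2.52, and 1 guide each for IMPDH2 and APRT higher, HGLibA_23258 and HGLibB_02570. Called in GSI alone were 2 PPAT guides lower, HGLibB_37803 and HGLibA_37853 at -1.36 and -1.30, and 1 guide each for DHODH and GMPS higher, HGLibA_13111 at 2.49 and HGLibA_19434, which had 0 and 0.949 normalized counts at T0 and 25.6, 53.2 and 21.9 in GSI. The DESeq2 test of GSI against DMSO called none of these guides. HGLibA_19434, HGLibB_02570 and the called CTPS1 guide, HGLibA_11668, were near 0 at T0 and met the count limit only through the day 14 cultures. Their calls as higher are therefore not independent of that limit.

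Among 56 other tested genes of nucleotide metabolism, 2 lay lower and 4 higher in DMSO than at T0. The level was again an unadjusted exact RRA p under 0.05, reached by 6.12% and 5.3% of all genes. None of the 56 had an RRA adjusted p under 0.05 in any comparison. DUT, which removes dUTP, had -2.23 and the adenylate kinase AK4 -1.40. On the other side stood PRPS2, which makes PRPP, at 1.46, the muscle-type adenylosuccinate synthase ADSSL1 at 1.26, DPYS, which degrades pyrimidines, at 1.29, and deoxycytidine kinase DCK at 0.75. DUT rested on 4 guides with an SD of 3.34.

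Of the same 56 genes, 3 lay lower and 2 higher in GSI than at T0 at that level, beside 5.7% and 5.39% of all genes. FPGS, which retains folates in the cell by adding glutamates, had -1.21 with 6 of 6 guides negative, the ribonucleotide reductase subunit RRM2 had -1.10 and AK4 -0.46, against PRPS2 at 1.58 and guanine deaminase GDA at 0.68. In GSI against DMSO 3 lay lower and 4 higher, beside 5.06% and 4.99% of all genes. CMPK2, a mitochondrial pyrimidine nucleotide kinase, had -0.82 with 4 of 6 guides negative. Its unadjusted exact RRA p was 0.000408, with an adjusted p of 0.959. ADSSL1 at -0.56 and DPYS at -0.40 followed. DUT at 1.51, the mitochondrial MTHFD2 paralogue MTHFD2L at 0.79, uridine phosphorylase UPP1 at 0.35 and the nucleoside diphosphate kinase NME2 at 0.32 lay higher. DUT guides averaged 23.0, 33.6 and 8.83 normalized counts in DMSO and 53.5, 14.1 and 53.3 in GSI, so the arms overlapped. DUT, ADSSL1 and DPYS had moved the other way in DMSO against T0. Both comparisons share the DMSO libraries, so these opposite moves are not independent observations. Over the 56 genes the medians were -0.015, 0.13 and 0.042 in the 3 comparisons.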

How the data were processed

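Per the labels and the study's methods, the authors deposited raw counts per guide made by MAGeCK 0.5.9.2, after demultiplexing (bcl2fastq 2.19) and read quality checks (FastQC 0.11.5). The deposited normalized table equals the counts times 1 constant per library and was not used. Guide sequences were not used here. Guides were tested with edgeR 4.0.16 (quasi-likelihood, R 4.3.3) on counts with median-ratio size factors, within the groups compared, after a minimum mean of 10 counts. Genes with at least 4 tested guides were ranked by RRA (alpha 0.25) of one-sided guide p-values with an exact null and Benjamini-Hochberg adjustment, microRNA and control guides left out. Scripts were tested on simulated data. Alternatives were DESeq2 1.42.0, TMM and control-guide factors, other filters, no rank cutoff, all 8 libraries in 1 fit, a replicate block and leaving out each library. The members, lists and tests were chosen with earlier results of these data known. Every member is named. Library values are given for each role group's lowest-p member on the low side (DMSO against T0), for members at an unadjusted p under 0.05, for paired enzymes and for salvage enzymes, and also for CMPK1, DTYMK and ADSL, which were added after their values were seen. Single guides are given for the 4 members with the lowest p and for salvage enzymes, and the IMPDH1 and PPAT guides and those called by DESeq2 were added likewise. Positions are from GENCODE on GRCh38, which may not be the build of the guide design. Totals of 12052218 to 18212884 counts per library limit guides with few counts.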

Additional observations from a re-analysis of the deposited data

How the results depend on the processing

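No setting called a member. Fold changes against T0 depend on 2 T0 libraries that differed from each other, and where 1 is left out the lone sample is assumed to vary like the other groups. Scaling to control guides moved the median of all genes to -0.25 (DMSO against T0) and -0.22 (GSI against T0), and the de novo and salvage medians in DMSO to -0.21 and -0.23, close to that shift. Counting the kinases as de novo gave -0.35 in DMSO. Of the other settings, the kinase group kept a negative median against T0 in all but GSI without T0 replicate 1.

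Same-numbered DMSO and GSI libraries had deviation correlations of 0.280, 0.0644 and 0.121, so the numbers were not taken as pairs, although each library correlated best with its own number, a hint from the data only. With a replicate block the salvage medians were 0.50 (DMSO) and 0.55 (GSI against T0), where all genes moved to 0.18 and 0.21, the de novo median in GSI was -0.015, members lower at unadjusted p under 0.05 numbered 1 in DMSO against T0 and 2 in GSI against DMSO, and 1 was higher in GSI against T0. The block did not move any count of called genes by over 1.5 times.

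Genes called lower in DMSO against T0 numbered 6 in the reported fit, 3 with all 8 libraries in 1 fit, 0 with a mean count of at least 50, and 0 to 7 with 1 library left out, 0 without either T0 library. In GSI against T0, 2 were called lower by DESeq2, 1 with a mean count of at least 50 and 0 to 1 with 1 library left out, and 1 was called higher with all 8 libraries. In GSI against DMSO 0 to 1 were called higher with 1 library left out, 1 without GSI replicate 1. Members lower at unadjusted p under 0.05 in DMSO against T0 numbered 0 by DESeq2, 1 with a mean count of at least 50, 1 with no cutoff on guide ranks, and 1 to 3 with 1 library left out. In GSI against T0 they numbered 1 to 3 with 1 library left out. In GSI against DMSO they numbered 2 with all 8 libraries, 2 with a mean count of at least 50, 2 with no cutoff on guide ranks, and 0 to 3 with 1 library left out. Members higher ranged from 0 to 2 in each comparison with 1 library left out. Over those fits the de novo median ran from -0.22 to 0.27 in DMSO and from -0.33 to 0.19 in GSI against T0, and the salvage median from -0.13 to 0.45, from -0.015 to 0.38, and from -0.21 to 0.20 in GSI against DMSO. The cause of these differences was not tested.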
